A study of Homo sapiens with 8 samples.

Results

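The replication-dependent histone genes are the clustered genes that supply the H1 linker histones and the H2A, H2B, H3 and H4 core histones of the nucleosome. Members were taken by symbol, as every gene model whose name begins with HIST1H, HIST2H, HIST3H or HIST4H in both deposited count tables, and 63 of 18638 gene models met this rule. By the class given in the symbol, 6 encoded H1, 14 H2A, 18 H2B, 12 H3 and 13 H4. The HIST1 cluster on chromosome 6 held 54 of them between positions 25726063 and 27893891 (GRCh38), HIST2 held 5 and HIST3 held 3 on chromosome 1, and HIST4 was the single gene HIST4H4 on chromosome 12.

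Nascent RNA was isolated by factory-seq, in which DNase-treated nuclei are lysed under native conditions and caspases release the RNA held at transcription sites, from 2 human colorectal adenocarcinoma cell lines. All 4 DLD-1 libraries came from cells of the line DLD-1-mAID-mClover-POLR2A(Tet-OsTIR1), in which an auxin-inducible degron marks RPB1 (encoded by POLR2A), the subunit that holds the active site of RNA polymerase II, and a tetracycline-inducible promoter drives the plant protein OsTIR1 that auxin needs to act. They formed a group labelled untreated and a group labelled as given auxin for 14 h. In the 4 HCT116 libraries the degron was on TOP2A, the DNA topoisomerase of proliferating cells, with an untreated TOP2A-mAID group and a group that also carried TOP2B-/- (spelled TO2B-/- in the genotype field). The protocol gave doxycycline for 24 h before auxin at 500 µM, without saying whether untreated cells had doxycycline. For the TOP2B-/- group the titles read control while the treatment field reads auxin, so its comparison with TOP2A-mAID cells changes genotype and possibly treatment as well. Titles describe all cells as asynchronous, and the protocol mentions sorting of G1 cells where applicable without naming the samples. Each group had 2 libraries, which are not stated to be separate cultures or clones, so p-values measure only the spread between these libraries.

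Histone synthesis is tied to DNA replication, since newly copied DNA must be packaged at once. Transcripts of these genes are short, intronless and, in dividing cells, usually end in a conserved stem-loop instead of a poly(A) tail; the stem-loop is bound by SLBP, and NPAT activates the genes from the histone locus body, a nuclear body that forms on the clusters. RNA polymerase II transcribes them. Whether poly(A) selection was used for the TruSeq RNA libraries is not stated.

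The 3′ stem-loop is shown because it is the feature that sets these transcripts apart, and it was not used to choose the genes. Among GENCODE transcripts of GRCh37 matched by symbol, 56 of 60 members (93.33%) ended in such a stem-loop within their last 150 bases, against 12 of 19747 other protein-coding genes (0.061%). The commonest form was present in 33 members, and 2 further forms in 9 members each, written here as DNA with the 6 bases of each stem arm in capitals and the 4 loop bases in lower case.
commonest form: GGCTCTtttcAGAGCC
form with another loop: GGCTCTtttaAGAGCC
form with another stem: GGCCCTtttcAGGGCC
No such element was found in the matched transcripts of HIST1H3E, HIST1H2BI, HIST1H4L and HIST2H2BE within that window.

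Promoters differed by class. RefSeq windows of GRCh38.p14, from 250 bases before to 50 after the start, were matched for 58 of the 63 members and searched on both strands. TATAAA was present in 65.52% of member windows and in 11.53% of all 35116 windows. CCAAT was present in every matched H1, H2A, H2B and H3 window but in only 3 of 11 H4 windows, against 34.61% of all windows. The octamer ATTTGCAT, the letters read by POU2F1 (OCT1), was present in 10 of 13 H2A and 14 of 18 H2B windows and in 1.77% of all windows. AAACACA, the H1 box, was present in 6 of 6 H1 windows and 5.64% of all windows, and GGTCCG was present in 10 of 11 H4 windows and 11.28% of all windows. A match is a description of the letters and not evidence of binding. None of the 5 strings contains another, and a window may hold several.

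The bases upstream of the start are printed for 6 members, with those 5 motifs in capitals on either strand. HIST1H1C (chr6:26056471-26056720) had the most reads, HIST1H1B (chr6:27867589-27867838) and HIST1H1D (chr6:26234988-26235237) were read in DLD-1 and hardly in HCT116, and HIST1H2BJ (chr6:27132796-27133045), HIST1H3B (chr6:26032100-26032349) and HIST1H4B (chr6:26027284-26027533) had the lowest fold changes of their classes in DLD-1. All 6 lie on the minus strand and are read 5′ to 3′.
HIST1H1C: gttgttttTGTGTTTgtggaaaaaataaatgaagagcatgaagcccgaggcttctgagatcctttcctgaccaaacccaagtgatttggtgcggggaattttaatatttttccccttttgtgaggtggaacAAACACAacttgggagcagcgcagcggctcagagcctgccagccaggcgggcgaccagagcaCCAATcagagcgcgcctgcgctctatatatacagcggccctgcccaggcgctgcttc
HIST1H1B: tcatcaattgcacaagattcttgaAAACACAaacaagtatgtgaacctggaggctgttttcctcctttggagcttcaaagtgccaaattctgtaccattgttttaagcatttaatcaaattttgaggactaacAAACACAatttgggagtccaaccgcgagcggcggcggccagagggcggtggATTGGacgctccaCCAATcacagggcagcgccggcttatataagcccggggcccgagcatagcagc
HIST1H1D: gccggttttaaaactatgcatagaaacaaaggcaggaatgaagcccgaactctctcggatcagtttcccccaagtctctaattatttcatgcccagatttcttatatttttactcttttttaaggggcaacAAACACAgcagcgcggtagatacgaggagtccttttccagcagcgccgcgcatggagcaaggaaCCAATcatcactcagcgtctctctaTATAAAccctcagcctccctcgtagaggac
HIST1H2BJ: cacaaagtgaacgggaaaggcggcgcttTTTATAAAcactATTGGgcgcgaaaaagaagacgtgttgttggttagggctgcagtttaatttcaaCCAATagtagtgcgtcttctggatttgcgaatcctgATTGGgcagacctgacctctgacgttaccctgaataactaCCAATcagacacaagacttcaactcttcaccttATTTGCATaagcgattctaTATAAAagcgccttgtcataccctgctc
HIST1H3B: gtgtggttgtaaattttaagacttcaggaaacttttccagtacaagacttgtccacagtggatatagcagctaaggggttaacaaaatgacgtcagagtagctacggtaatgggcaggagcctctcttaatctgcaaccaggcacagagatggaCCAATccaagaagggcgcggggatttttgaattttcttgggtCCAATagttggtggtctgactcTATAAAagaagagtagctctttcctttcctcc
HIST1H4B: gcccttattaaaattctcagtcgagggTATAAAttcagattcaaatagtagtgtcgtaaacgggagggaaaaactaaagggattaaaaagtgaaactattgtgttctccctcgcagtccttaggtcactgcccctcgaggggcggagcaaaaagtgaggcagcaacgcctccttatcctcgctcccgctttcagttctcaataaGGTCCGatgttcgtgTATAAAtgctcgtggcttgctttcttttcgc
The HIST1H2BJ stretch spans the region it shares with HIST1H2AG, its neighbour on the plus strand, and holds the octamer, while the 3 H1 promoters hold the H1 box and the HIST1H4B promoter holds GGTCCG.

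The libraries themselves differed before any histone gene was considered. Total counts were 62626875 and 36906755 in DLD-1 controls and 14183633 and 10739622 after auxin, and lay between 32129400 and 36491540 in HCT116. Reads over gene models silent in the other line, extended to all models, came to 39.5% and 59.6% of the total after auxin, 2.24% and 9.03% in DLD-1 controls and at most 3.04% in HCT116. For the 58 histone models of at most 1000 bp that density equals 1.73 to 4.43 reads a gene in the auxin libraries, so it is small beside most counts below; for the 5 longer models it equals 9.79 to 166 reads. POLR2A, the tagged gene, had a log2 fold change of -0.79 (edgeR adjusted p = 0.0773) in DLD-1, and TOP2B one of -0.50 (edgeR adjusted p = 0.0269) in the TOP2B-/- group. TOP2B was thus still read there, at 186 and 192 CPM in controls and 135 and 132 CPM in the TOP2B-/- libraries. Markers of the epithelial origin were read in both lines (summed level 3602 to 6803 CPM in DLD-1 and 2445 to 4244 CPM in HCT116), though KRT20 and VIL1 stayed under 1 CPM in HCT116. The markers PTPRC, VIM, COL1A1 and PECAM1, of cells that the cultures should lack, were called higher in 4 of 4 cases after auxin, where 32.2% of all genes were. Their summed levels went from 3.58 and 12.2 CPM to 113 and 96.8 CPM, of which PECAM1 made 97.6 and 72.5 CPM. In HCT116 they summed to 45.8 and 48.3 CPM in controls, mostly COL1A1 (42.3 and 46.6 CPM). The TOP2B-/- sums were 35.7 and 30.0 CPM, and 0 of the 4 were called. The part of these markers in the results was not tested. CPM, the read count scaled to a common library size, are given here with TMM scaling.

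Linker histone genes led every library, HIST1H1C in 7 of the 8 and HIST1H1E in HCT116 control replicate 2. HIST1H1C had 14122 and 8593 reads in DLD-1 controls and HIST1H1E had 12329 and 7943, and HIST1H1C alone took 11.98% to 15.08% of all histone reads in the 8 libraries. Per kb of counted length the mean DLD-1 control levels were 391 CPM for HIST1H1C and 327 CPM for HIST1H1E. The next levels per kb were 194 CPM for HIST2H2AC, 174 CPM for HIST1H4E and 168 CPM for HIST1H2BC. In HCT116 controls HIST1H1C (214 CPM per kb) and HIST1H1E (195 CPM per kb) were again the highest, followed by the core histone gene HIST1H3B at 107 CPM per kb. The low end was shared as well: the 3 HIST3 genes had 0 reads in every library, which allows up to 3 reads in each, and HIST1H2AA and HIST1H2BA, a pair known from testis, had at most 4 reads in any library. All histone genes together made up 0.177% and 0.189% of the total count in DLD-1 controls.

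**Figure D1:**
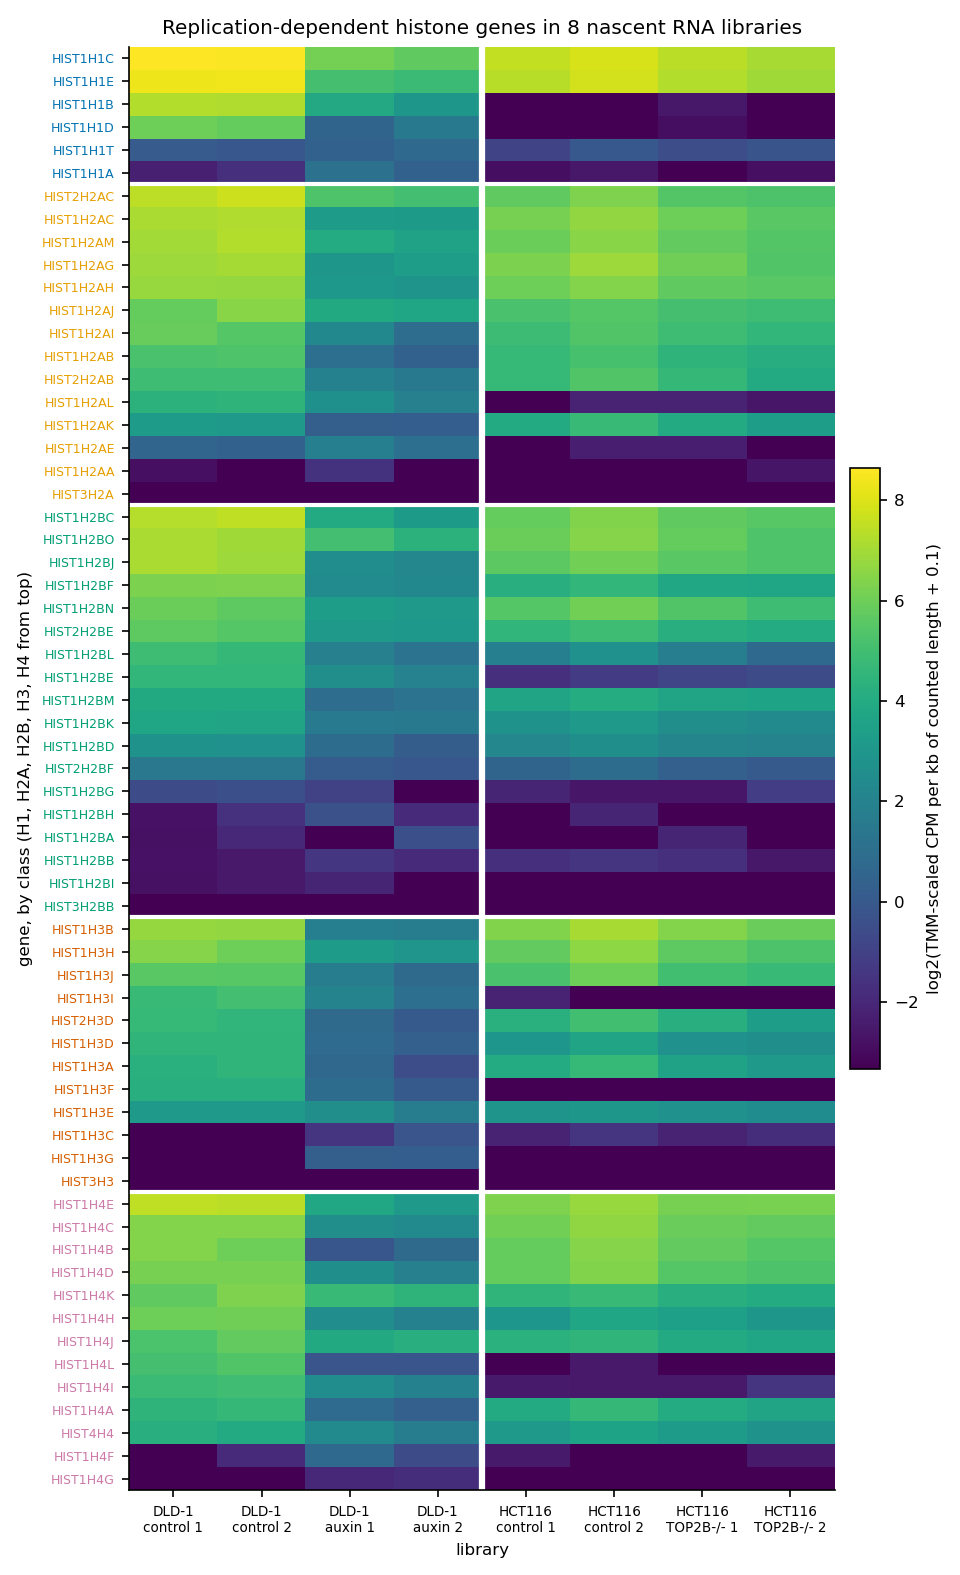
Level of each of the 63 histone genes (rows, by class and by mean DLD-1 control level) in the 8 libraries (columns), as log2 of TMM-scaled CPM per kb of counted length with 0.1 added. The 2 auxin columns are darker than the 2 DLD-1 control columns for most rows, and a few rows such as HIST1H1B and HIST1H1D are bright in DLD-1 and dark in all 4 HCT116 columns.

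The DLD-1 comparison sets nascent histone RNA after RPB1 was targeted against that of untreated cells. Levels are scaled to the other reads of each library, so folds and percentages are relative. The absolute amount of RNA that remained is not known. Summed over all members, the level was 2281 and 2285 CPM in the controls and 336 and 262 CPM after auxin, so both auxin libraries lay far below both controls. The means of 2283 ± 2.26 and 298.9 ± 52.5 CPM (SD, n = 2) differ 7.64-fold, or 4.92-fold when libraries are scaled by their totals alone. By class the TMM-scaled fall of the sum was 12.9-fold for H3, 8.87-fold for H2A, 8.68-fold for H1, 8.67-fold for H4 and 5.50-fold for H2B. The share of H2B in all histone reads accordingly went from 30.0% and 28.5% in controls to 40.6% and 40.8% after auxin, and that of H3 from 9.09% and 8.57% to 5.54% and 4.83%. Of the 5 members over 1000 bp, 4 are H2B genes (HIST1H2BD, HIST1H2BK, HIST2H2BE and HIST2H2BF), and without them the fall of H2B was 9.02-fold. With the expected background reads taken off each gene, H2B fell 6.56-fold and H3 15.1-fold, and the H2B share after auxin was 38.2% and 36.2%. Both settings were chosen after seeing the data. Fewer cells carrying the RNA and less RNA per cell cannot be told apart in such bulk libraries.

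**Figure D2:**
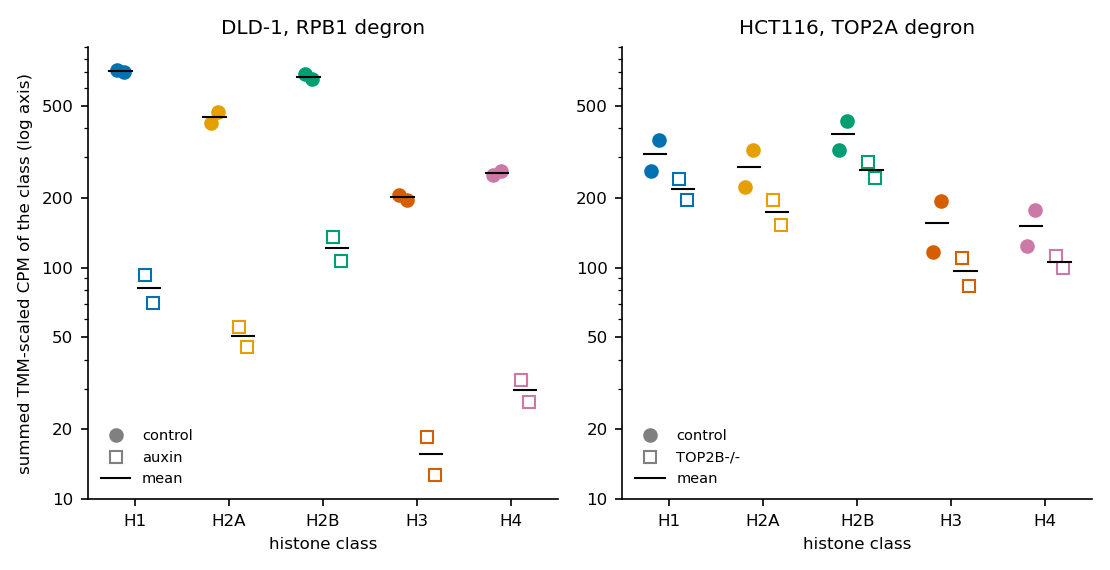
Summed TMM-scaled CPM of each histone class (log axis) in DLD-1 (left) and HCT116 (right), with filled circles for control libraries, open squares for the other group and bars for the mean of 2 libraries. The DLD-1 auxin squares lie below the controls in every class, from 5.50-fold for H2B to 12.9-fold for H3, and the HCT116 groups lie close together.

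By gene, 51 of the 63 members passed the count filter in DLD-1, and 46 were called lower after auxin by edgeR's quasi-likelihood test with Benjamini-Hochberg adjustment at 0.05, 2 higher and 3 neither. Over all 17625 genes tested, 35% were called lower and 32.2% higher. The median log2 fold change of the tested members was -3.31, against -0.06 for all genes. With background-subtracted counts, which were filtered and scaled anew, 40 of 50 tested members were called lower and their median was -2.20. Gene values given below for that setting hold the new scaling as well as the subtraction. In 47 members both auxin libraries lay below both controls, as they did for 46.3% of all genes. Each of the 4 pairings of an auxin with a control library gave a member median between -3.54 and -2.98, whereas the replicates differed by a median of -0.01 in controls and -0.42 after auxin. The balance of calls over all genes depends on scaling: 47.9% of calls were higher with TMM and 69.1% with library totals alone, which moved the median of all genes to 0.57 and that of the members to -2.68. Without auxin replicate 1 the member median was -3.49, and without auxin replicate 2 it was -3.08, against -0.07 and -0.02 for all genes. With 1 auxin library left the fit calls far fewer genes over the whole table, so a call lost there is not particular to histone genes.

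**Figure D3:**
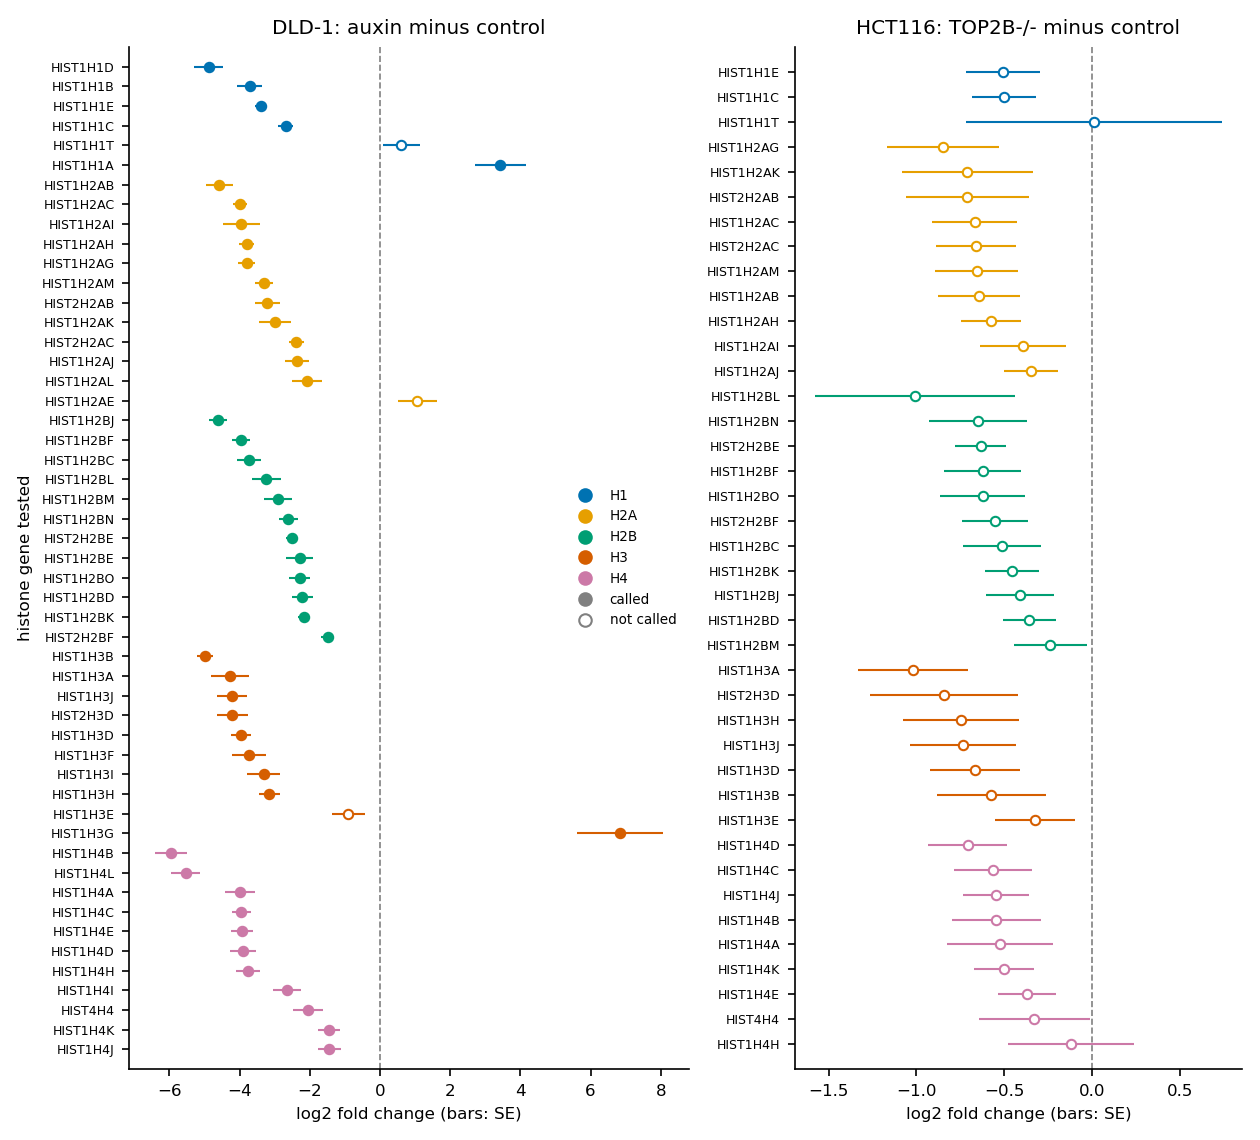
Log2 fold change of every tested histone gene with its standard error, for DLD-1 (left, 51 genes) and HCT116 (right, 40 genes, on a narrower axis), with filled points called and open points not called by edgeR at an adjusted p under 0.05. DLD-1 points run from -5.96 (HIST1H4B) to 6.84 (HIST1H3G), and HCT116 points from -1.02 (HIST1H3A) to 0.01 (HIST1H1T).

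Among the linker histones, which bind the DNA that enters and leaves the nucleosome, 4 of 6 fell. HIST1H1C went from 14122 and 8593 reads to 873 and 520, and HIST1H1E from 12329 and 7943 to 459 and 307. These are falls of 2.69 and 3.39 on the log2 scale (SE 0.21 and 0.18), to 15.5% and 9.53% of the control level. HIST1H1B had 5847 and 3584 reads in controls and 203 and 86 after auxin, and HIST1H1D had 2397 and 1307 against 18 and 29. HIST1H1D had the lowest log2 fold change of the class, at -4.88 (SE 0.41, edgeR adjusted p = 0.00421). HIST1H1T, the testis linker histone, had 34 and 19 reads against 15 and 16, and was not called (log2 fold change 0.61, edgeR adjusted p = 0.336). HIST1H1A went the other way, from 4 and 5 reads to 29 and 13, where the background density alone would give 3.82 and 4.38 reads. It was called higher (log2 fold change 3.43, edgeR adjusted p = 0.0189) but not without auxin replicate 1 (3.04) or auxin replicate 2 (3.77).

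H2A and H2B form the dimers that flank the central tetramer of the nucleosome, and 11 of 12 tested H2A genes and 12 of 12 tested H2B genes fell. The H2A median was -3.26, and the values ran from HIST1H2AB to HIST1H2AE. HIST1H2AB had 846 and 586 reads in controls and 16 and 8 after auxin, a fall of 4.58 on the log2 scale (SE 0.39). HIST1H2AE, which had few reads in any library (38 and 21 against 34 and 15), was the H2A gene not called, with a log2 fold change of 1.06 (edgeR adjusted p = 0.143); it was called with background-subtracted counts (2.20) and when scaled by totals only (1.69). HIST1H2AC had 3731 and 2486 reads against 88 and 67, and the HIST2 gene HIST2H2AC fell less, by 2.39 (SE 0.21). The H2B median was -2.57, the smallest fall of the core classes, over 12 genes that include the 4 over 1000 bp. HIST1H2BJ had 3189 and 1734 reads in controls and 48 and 30 after auxin, a log2 fold change of -4.62 (SE 0.26), to 4.08% of the control level. At the other end HIST2H2BF went from 3814 and 2386 reads to 520 and 349, a fall of 1.49 on the log2 scale (SE 0.18). The HIST2H2BF model spans 29685 bp and overlaps FCGR1A on the opposite strand, and the background density would give 145 and 166 of its auxin reads.

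H3 and H4 form the tetramer at the centre of the nucleosome and hold the largest falls of single genes. Of 10 tested H3 genes 8 fell and 1 rose, with a median of -3.85, and 11 of 11 tested H4 genes fell, with a median of -3.90. HIST1H4B had 1480 and 704 reads in controls and 5 and 8 after auxin, or 26.8 ± 5.25 against 0.44 ± 0.21 CPM (SD, n = 2), a fall of 5.96 on the log2 scale (SE 0.46, edgeR adjusted p = 0.00421). HIST1H4L had 599 and 463 reads against 5 and 4, a fall of 5.54 (SE 0.41). Background alone would give 1.75 of the 5 reads of HIST1H4B in auxin replicate 1. HIST1H3B, the highest H3 gene, had 2482 and 1499 reads against 28 and 21 and was at 3.16% of its control level in scaled counts. In all 3 genes the groups were far apart.

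The smallest H4 falls were those of HIST1H4J and HIST1H4K, which are nearly identical to each other. HIST1H4J had 655 and 586 reads in controls against 93 and 90, and HIST1H4K had 904 and 866 against 162 and 105. Their log2 fold changes were -1.45 and -1.46 (edgeR adjusted p = 0.0214 and 0.0205). They were -0.11 and -0.17 with background-subtracted counts and -0.82 and -0.84 with library totals alone, and were called in neither. The background density would give only 1.74 and 1.99 of the auxin reads of HIST1H4J. Subtracted counts were filtered and scaled anew, so their values hold that new scaling as well. Both genes also lost the call without auxin replicate 1 or 2. In the transcripts used here 92.06% and 92.6% of their 50-base words also occur in another gene, so reads may have been shared or dropped, and their single values are uncertain. The same share was 78.33% for HIST2H3D, 72.69% for HIST2H2BF, 66.28% for HIST1H2AJ and 63.45% for HIST1H2AI, and only 2.27% for HIST1H4B.

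Both H3 genes that were not called lower had low levels. HIST1H3E had 194 and 118 reads in controls and 47 and 20 after auxin, and its log2 fold change of -0.90 (edgeR adjusted p = 0.147) was not called and turned to 0.23 with background-subtracted counts. HIST1H3G had 0 and 0 reads in controls and 9 and 7 after auxin, where background would give 2.29 and 2.62. Against a floor of 3 reads per library its auxin level was at least 6.45-fold higher (edgeR adjusted p = 0.0192), and it did not pass the filter when any 1 library was left out, with background-subtracted counts or at a mean CPM of at least 5. The other 169 tested gene models of at most 1000 bp, which are not in the histone clusters by name, had a median log2 fold change of 2.95, with 2 called lower and 79 higher. They are 169 of 458 such models, and in 150 of them both auxin libraries lay above both controls. A model can pass the count filter through the auxin group alone, so these models are no length-matched contrast to the histone genes.

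Falls occurred along the whole HIST1 cluster. It spans 2.168 Mb and is parted into blocks by gaps of 846.8 kb and 659.9 kb. In the first block 19 of 24 tested members were lower, with a median of -3.83, and all 5 tested members that were not called lower in DLD-1 lie there. The next block had 5 of 5 lower (median -3.80) and the last 16 of 16 (median -3.07). The difference between blocks was not tested. The median was -3.39 for HIST1 (40 of 45 lower), -2.52 for HIST2 (5 of 5 lower) and -2.05 for HIST4H4. The 19 other gene models inside the HIST1 span had a median of -0.86, with 8 lower and 4 higher. These are 42.1% and 21.1%, where 35% and 32.2% of all genes were called lower and higher. The 4 models nearest the first histone pair, SLC17A4, SLC17A1, SLC17A3 and SLC17A2, which encode transporters, had log2 fold changes of 2.70 to 3.46. They were chosen by place after their values were seen, and SLC17A2 was not called (edgeR adjusted p = 0.0548). The butyrophilin gene BTN2A1, between histone blocks, is named because it had the lowest value of the 19, at -2.16. BTN1A1 in the same gap had 3.41.

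**Figure D4:**
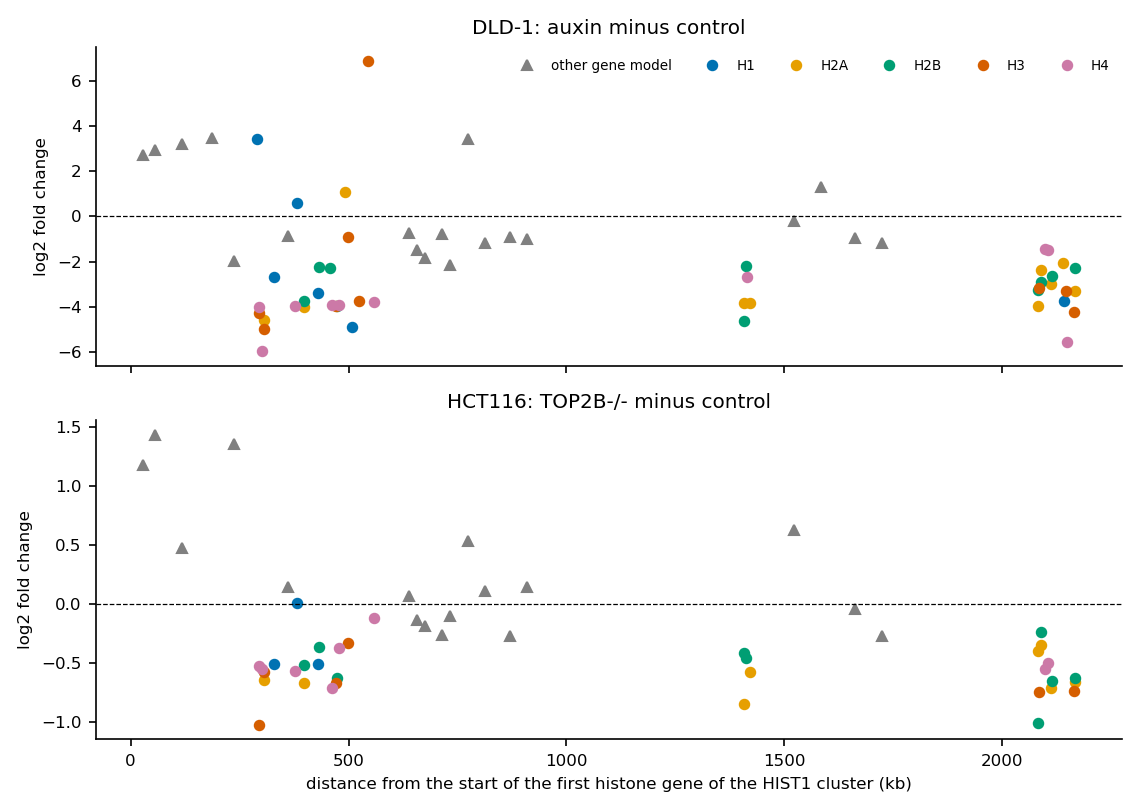
Log2 fold change against distance in kb from the start of the first HIST1 gene, for tested histone genes (circles, coloured by class) and the other gene models in the span (grey triangles), in DLD-1 (top) and HCT116 (bottom). In DLD-1 most circles lie well below 0 in each block while the triangles lie between -2.16 and 3.46.

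Histone genes often lie in divergent pairs that share an upstream region, and 12 such pairs had starts 223 to 346 bases apart. In DLD-1 both genes were tested in 9 pairs, and both were called lower in 9 of 9. Partners differed in log2 fold change by 0.01 to 1.64, with a median of 0.53. HIST1H3D and HIST1H2BF were closest (-3.97 and -3.96). HIST1H2BK (-2.17) and HIST1H2AH (-3.80) were furthest apart. The HIST1H2BK model spans 8566 bp and contains HIST1H4I on the opposite strand, and use of strand in counting is not stated. HIST1H2BC and HIST1H2AC fell by 3.74 and 3.99, and HIST2H2BE and HIST2H2AC by 2.52 and 2.39. The 5 members over 1000 bp had a median of -2.21, against -3.35 for the 46 shorter ones tested. Across the 51 tested members the log2 fold change had a Spearman rho of -0.45 with the control level per kb, as a description over genes that share libraries. The control level enters both values, and HIST1H3G and HIST1H1A, with few or no control reads, passed the filter through the auxin libraries. A negative rho is thus partly built in, and no conclusion is drawn from it.

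In HCT116 the question is whether histone RNA differed in cells that also carry TOP2B-/-. Summed over all members the level was 1048 and 1485 CPM in the controls and 947 and 777 CPM in the TOP2B-/- group. Both TOP2B-/- libraries were thus below both controls, but the controls differed from each other by more than control 1 differed from TOP2B-/- replicate 1. The means were 1267 ± 309 and 862 ± 120 CPM (SD, n = 2). Of the 40 members tested, 0 were called lower and 0 higher by edgeR, where 1.66% and 1.75% of all 15273 genes were called lower and higher, and the smallest edgeR adjusted p of a member was 0.113 (HIST2H2BE). At an unadjusted p under 0.05 in edgeR there were 11 of the 40 members, all lower. Of all 15273 genes, 3492 were under that limit, 1686 of them lower. DESeq2 called 7 members lower, and the share of all genes it called is not given here. The median log2 fold change was -0.57, against 0.03 over all genes, 39 of 40 members had a negative value, and in 33 both TOP2B-/- libraries lay below both controls, or 82.5% against 27.6% of all genes.

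Control replicate 2 stood apart from control replicate 1 in this set, with all 40 members higher and a median difference of 0.54, about the size of the group difference. Against control replicate 1 the TOP2B-/- libraries had member medians of -0.14 and -0.44, and against control replicate 2 they had -0.68 and -0.90. Without control replicate 1 the member median was -0.82, and without control replicate 2 it was -0.36, against 0.01 and -0.02 over all genes. The members move together between libraries, so their number is not a number of independent observations. The summed epithelial markers had the libraries in the same order, with 3375 and 4244 CPM in controls and 2753 and 2445 CPM in the TOP2B-/- group, and so did PCNA, the replication clamp, while the 30 S-phase and E2F genes had a median log2 fold change of -0.12. The part of these in the histone difference was not tested.

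The classes lay close together in HCT116. Class medians were -0.50 for H1 (3 genes tested), -0.66 for H2A, -0.55 for H2B, -0.73 for H3 and -0.53 for H4. HIST1H1C had 4532 and 6311 reads in controls against 4224 and 3230, a log2 fold change of -0.50 (SE 0.18, edgeR adjusted p = 0.221). HIST1H1E had 4258 and 6346 reads against 4116 and 3154, with -0.51 (edgeR adjusted p = 0.267). The lowest value was that of HIST1H3A, which had 253 and 429 reads against 191 and 136 and a log2 fold change of -1.02 (SE 0.32, edgeR adjusted p = 0.175). In each of these genes the TOP2B-/- libraries were lower than both controls, by a margin under the gap between the controls for replicate 1. HIST1H1T was the only tested member above 0, at 0.01. Partners of the 9 tested divergent pairs differed by a median of 0.11. Other gene models of at most 1000 bp had a median of -0.44 over 27 tested, of which 0 were called and 12 had both TOP2B-/- libraries below both controls.

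The lines themselves differed in which histone genes were read. By reads in the control libraries, 37 members had at least 100 in all 4, 13 had at most 10 in all 4, and 8 had at least 100 in both DLD-1 controls and at most 10 in both HCT116 controls; 5 lay between, and 0 showed the reverse pattern. These 8, which were chosen by this pattern after the values were seen, are 17.8% of the 45 members with at least 100 reads in both DLD-1 controls, where the same pattern holds for 0.854% of 10779 gene models and for 0 of 11 other models inside the HIST1 span. HIST1H1B had 5847 and 3584 reads in DLD-1 controls and 0 and 0 in HCT116 controls, and HIST1H1D had 2397 and 1307 against 0 and 0. The others were HIST1H3F (418 and 255 against 0 and 0), HIST1H3I (627 and 482 against 2 and 0), HIST1H4L (599 and 463 against 0 and 1), HIST1H2AL (462 and 309 against 0 and 2), HIST1H4I (512 and 348 against 1 and 1) and HIST1H2BE (503 and 319 against 3 and 5). In the TOP2B-/- libraries the 8 had at most 8 reads each. They include core and linker histones, so no class was missing in HCT116: HIST1H1C and HIST1H1E supplied the H1 reads there.

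Of these 8 genes, 4 are direct neighbours at the far end of the HIST1 cluster. HIST1H2AL, HIST1H1B, HIST1H3I and HIST1H4L lie between positions 27865329 and 27873511 of chromosome 6, and the next member, HIST1H3J at 27890315, was read in both lines. HIST1H1D and HIST1H3F lie near each other at 26234212 and 26250142 with HIST1H4F and HIST1H4G, at most 2 reads in any control, between them. Over all 63 members the control levels per kb of the lines had a Spearman rho of 0.80. The lines were counted in separate tables and differ in origin and tag, so cell line and batch cannot be told apart.

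**Figure D5:**
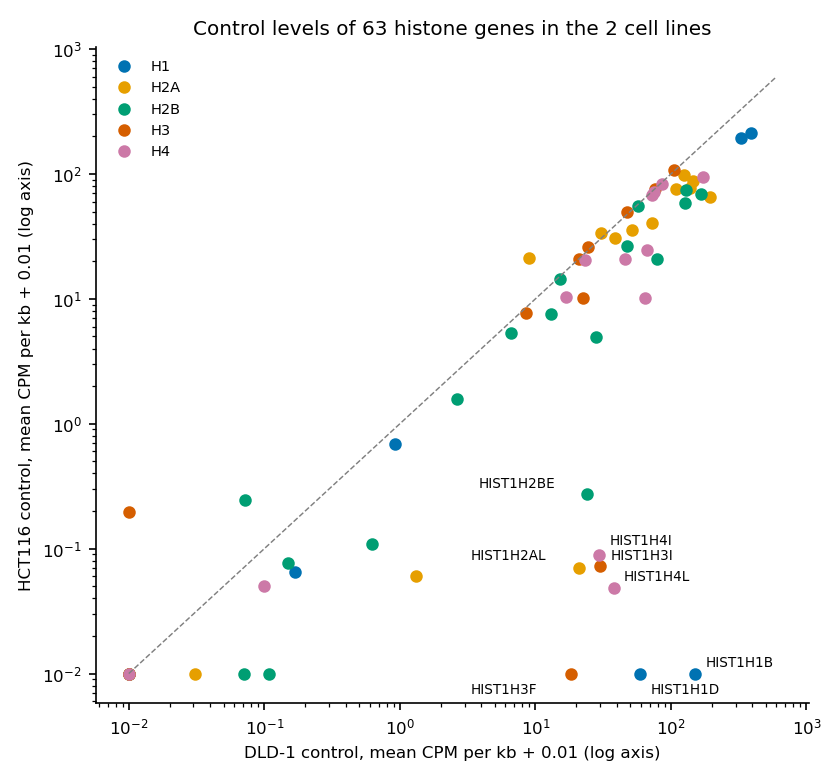
Mean control level of each of the 63 histone genes in DLD-1 (x axis) against HCT116 (y axis), in TMM-scaled CPM per kb with 0.01 added, on log axes, coloured by class, with a dashed line of equality. Most genes lie near the line, and the 8 labelled genes lie at 18.2 to 150 CPM per kb in DLD-1 and at most 0.26 in HCT116.

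Genes that act on histone RNA or protein were listed apart. Of 37 genes of histone 3′ processing and the histone locus body, 23 (62.2%) fell and 0 rose in DLD-1. Over all genes tested there, 35% were called lower and 32.2% higher. The median log2 fold change of the 37 was -1.11, between the -3.31 of the histone genes and the -0.06 of all genes. SLBP, which binds the stem-loop, had 59.5 and 61.0 CPM in controls and 22.3 and 22.0 CPM after auxin, a fall of 1.44 (SE 0.17, edgeR adjusted p = 0.0052). NPAT had 122 and 113 CPM against 95.2 and 77.2 CPM and was not called (log2 fold change -0.45, edgeR adjusted p = 0.0771). CASP8AP2 (FLASH), a processing factor of the same body, fell by 1.42, from a low level of 8.48 and 9.72 CPM. The largest fall of the list was that of FIP1L1, a subunit of the polyadenylation machinery, at 2.48 (SE 0.15). POU2F1 fell by 1.76, and ZCCHC11 (TUT4), a terminal uridylyltransferase, by 1.66. In HCT116 0 of these 37 genes were called, where 1.66% and 1.75% of all genes were called lower and higher. The median of the 37 was -0.01, and SLBP and NPAT had log2 fold changes of -0.01 and 0.00.

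Of 21 histone chaperones, 13 (61.9%) fell and 0 rose in DLD-1, where 35% of all genes were called lower and 32.2% higher. The chaperone median was -0.94, and the largest falls were those of MMS22L (-2.34), NASP (-2.28) and the centromere chaperone HJURP (-2.07). Of 30 S-phase and E2F genes, 18 (60%) fell, with a median of -0.99. PCNA fell by 1.62, DTL by 1.48 and GMNN by 2.21. In HCT116 0 of 21 chaperones were called and 2 of 30 S-phase genes (6.67%) fell, against 1.66% of all genes called lower. These were PCNA, by 0.79, and the replication factor GINS1, by 0.42 on the log2 scale (edgeR adjusted p = 0.0456 and 0.0449).

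The genes listed as replication-independent histone variants, which lie outside the rule by symbol, moved both ways in DLD-1. Of 14 tested, 5 fell and 4 rose, with a median of -0.21, where 35% and 32.2% of all genes were called lower and higher. H2AFX fell by 1.49, H3F3B by 1.23 and H2AFV by 0.89, from control levels of 25.8 to 51.2 CPM, and the 4 that rose (H2BFWT, H2BFM, H1FOO and H1FNT, known from germ cells and named after their values were seen) had at most 3.71 CPM in any library. H3F3B had 48.6 and 48.6 CPM in controls and 22.6 and 18.8 CPM after auxin. In HCT116 0 of 9 variants were called, with a median of -0.28, where 1.66% and 1.75% of all genes were called lower and higher.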

How the data were processed

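Groups were taken from the labels, and the HCT116 group with conflicting treatment labels was defined by genotype. The authors deposited raw read counts over RefSeq gene models, introns included, with 1 table per cell line. The submitters' processing notes name hg38, STAR and DESeq2 without roles, and no source states the counting settings or strand. The authors' tables of changed genes (log2 fold changes, p-values, normalized values) were not used. The supplied paper covers a different experiment and gave no method.

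For each comparison the 4 libraries entered 1 quasi-likelihood fit (edgeR 4.0.16, R 4.3.3; filterByExpr, TMM, group as the single term, 2 residual degrees of freedom), and two-sided p-values were adjusted by Benjamini-Hochberg over all genes tested, with calls at 0.05. Standard errors came from the F statistic. An exact permutation of 2 against 2 libraries cannot go below p = 0.333. Background density was the median of reads per counted base over models of at least 5000 bp that ranked in the lowest 20% of their chromosome in the other line's controls. Limits at 0 reads allow 3 reads per library and cover counting error only. The fit was checked on simulated counts. The members and gene lists were chosen with earlier results of these data known, so no list was given a test of its own.

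Genes named were, by class, the 3 highest members per kb in each line, the 3 largest called falls and rises, members tested in DLD-1 and not called lower, the extremes among members of at least 5 CPM, all H1 genes and the 3 most read divergent pairs. Of the other lists they were those called in HCT116 if at most 5, the 3 smallest adjusted p in DLD-1, and SLBP, NPAT and CASP8AP2. Genes outside this rule (the DLD-1-only members, cluster neighbours, members given for position or shared sequence, the variants that rose) were named after their values were seen. The result of 1 gene of the S-phase list is not reported here. Alternatives were DESeq2 1.42.0, other scalings and filters, background-subtracted counts, leaving out each library and a replicate block. Background-subtracted counts were filtered and TMM-scaled anew in edgeR, whereas class sums with background taken off kept the scaling of the main fit.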

Additional observations from a re-analysis of the deposited data

How the results depend on the processing

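In DLD-1 the count of histone genes called lower stayed between 39 and 46 in the alternatives that kept every library. The 39 were all 39 members tested at a mean CPM of at least 5. Every median log2 fold change of the tested histone genes was below 0, also with 1 library left out. That median was -2.89 with DESeq2, -2.68 with library totals alone, -2.94 with no count filter and -2.20 with background-subtracted counts, where 50 members were tested and all genes had a median of -0.16. The count called higher was 3 with library totals alone, where 69.1% of calls over all genes were higher. It was 0 at a mean CPM of at least 5, which removes the low genes concerned. HIST1H3E turned to 0.23 with background-subtracted counts, which were filtered and scaled anew. In HCT116 the count called lower was 7 with DESeq2, 1 at a mean CPM of at least 5, 3 with background-subtracted counts and 0 to 19 when 1 library was left out, the 19 without control replicate 1. HIST1H1T, near 0 in the fit above, was -0.004 with DESeq2 and between -0.40 and 0.51 when 1 library was left out. The cause of these changes was not tested. A group reduced to 1 library is assumed to vary like the other group. In the paired fit with a replicate block, 46 members were lower and 2 higher in DLD-1 (median -3.31). That fit called 12963 of all 17625 genes tested. In HCT116 it called none of the 15273 genes tested, so 0 lower and 0 higher members (median -0.55) tell nothing particular to histone genes. Deviations of same-numbered libraries correlated at 0.56 in DLD-1 and -0.82 in HCT116 across genes. No label says what a number marks, and 2 pairs a line are too few to establish pairing from the data, so the numbers were not taken as pairs. Crossed numbers in HCT116, tried after seeing the data, gave 15 lower and a member median of -0.55. The share of all genes called there is not given here. Genes of a few reads, such as HIST1H1A and HIST1H3G, are limited by depth, most of all in the auxin libraries.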

Other observations

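The 12 protein-coding genes outside the rule that ended in a stem-loop were H2AC7, H2AC19, H3C14, H3C15, H4C14, H4C15 and H3-7, which are histone genes by name, and ERLEC1, HDAC7, NPM1, SEZ6L and a gene named by identifier only. HIST1H4L, which fell by 5.54 on the log2 scale in DLD-1, had no stem-loop in the matched transcript, and HIST2H2BE, with a stem-loop elsewhere in its transcript, fell by 2.52.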
